A study of Mus musculus with 15 samples.

Results

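The genes followed here are 9 voltage-gated potassium channel genes of mouse Purkinje cells (PCs): the Kv1 pore-forming (alpha) subunit genes *Kcna1*, *Kcna2*, *Kcna3*, *Kcna4* and *Kcna6*, the Kv beta subunit gene *Kcnab2*, and the Kv3 pore-forming subunit genes *Kcnc1*, *Kcnc2* and *Kcnc4*. They were picked by symbol from the 38561 genes in the count files, though with earlier results of these data known, and 7 of the 9 had enough reads to be tested. Other Kv3 genes were not analysed here. The 15 libraries were made from PCs cut out of the cerebellum by laser capture at 5 ages, postnatal day 0 (P0) and then P4, P8, P14 and P21. Each age has 3 libraries from separate biological replicates. All mice were male according to the study's methods, and their strain, written C56/BL6 in the sample labels, was the same at every age. The labels give no treatment or mutation, and age is the only difference they give between the groups. At P4 to P21 single PC bodies were collected, whereas at P0 clusters of PCs were taken because individual cells were hard to isolate. Age and the way of capture cannot be told apart in any comparison that involves P0, so the step from P4 to P21 was also tested on its own.

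Kv channels are tetramers that open on depolarization and let potassium out of the cell, which shortens the action potential and restrains firing. Kv1 channels open at relatively low voltages and sit mainly in axons, where they limit repetitive firing and transmitter release, and in the cerebellum Kv1 protein is especially dense in the basket cell terminals that wrap the PC axon. Kv3 channels open only at high voltages and close quickly, which lets fast-spiking neurons such as PCs fire brief spikes at high rates. Kv beta subunits are cytoplasmic proteins related to aldo-keto reductases that bind Kv1 alpha subunits, change their inactivation and help bring them to the membrane and the axon.

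Several members are neighbours in the genome (GRCm38). On chromosome 3, *Kcna3* (107036169 to 107038070, + strand, a single exon) lies 63075 bases from *Kcna2* (107101146 to 107115005, + strand), and *Kcnc4* (107438303 to 107459552, - strand) follows 323297 bases further on. On chromosome 6, *Kcna1* (126640397 to 126646384, - strand) and *Kcna6* (126708329 to 126740674, - strand) are 61944 bases apart. *Kcna4* is on chromosome 2 (107290639 to 107298502, + strand), *Kcnab2* on chromosome 4 (152390742 to 152477871, - strand), *Kcnc1* on chromosome 7 (46396497 to 46438704, + strand) and *Kcnc2* on chromosome 10 (112271121 to 112467024, + strand). All 9 are protein-coding.

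The RefSeq start sites of 8 members had a promoter sequence on GRCm38.p6. The 4 windows below, each the 250 bases before a start site written 5′ to 3′ on the gene's own strand, belong to genes with unlike courses in the counts: *Kcna6* rose with age, *Kcna4* had its highest mean at P0, *Kcnc1* was present at all ages and *Kcna3* was near or at 0. The windows are *Kcna6* at chr6:126740675-126740924, - strand, *Kcna4* at chr2:107290339-107290588, + strand, *Kcnc1* at chr7:46396218-46396467, + strand, and *Kcna3* at chr3:107035912-107036161, + strand. Capitals mark GC boxes, GGGCGG or its reverse complement CCGCCC.
Kcna6: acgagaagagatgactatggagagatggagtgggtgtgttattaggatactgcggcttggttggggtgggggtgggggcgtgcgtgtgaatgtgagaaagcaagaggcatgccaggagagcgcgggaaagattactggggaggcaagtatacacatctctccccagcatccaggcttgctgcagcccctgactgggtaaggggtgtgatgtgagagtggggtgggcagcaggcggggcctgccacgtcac
Kcna4: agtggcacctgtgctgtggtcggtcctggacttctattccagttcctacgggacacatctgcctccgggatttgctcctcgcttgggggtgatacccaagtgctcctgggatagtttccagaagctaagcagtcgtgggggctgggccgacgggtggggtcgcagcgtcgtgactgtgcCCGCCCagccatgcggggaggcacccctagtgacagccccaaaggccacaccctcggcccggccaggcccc
Kcnc1: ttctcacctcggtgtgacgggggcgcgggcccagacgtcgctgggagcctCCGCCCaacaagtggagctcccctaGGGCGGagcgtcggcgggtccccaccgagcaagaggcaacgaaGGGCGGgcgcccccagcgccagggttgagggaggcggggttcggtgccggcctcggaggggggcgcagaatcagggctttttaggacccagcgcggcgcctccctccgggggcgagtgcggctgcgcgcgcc
Kcna3: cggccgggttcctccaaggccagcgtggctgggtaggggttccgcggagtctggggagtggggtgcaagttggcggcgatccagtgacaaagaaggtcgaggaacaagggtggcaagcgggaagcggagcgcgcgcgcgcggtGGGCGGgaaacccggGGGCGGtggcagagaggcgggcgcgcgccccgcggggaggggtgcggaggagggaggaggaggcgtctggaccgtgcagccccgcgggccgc

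The *Kcnc1* window held 3 GC boxes and 30 CpG dinucleotides, and the *Kcna3* window 2 GC boxes and 31 CpG. Among 32851 windows of the same length, 94.1% had fewer CpG than *Kcnc1* and 94.8% fewer than *Kcna3*, and the median window had 6. The *Kcna4* window held 1 GC box and 14 CpG, and the *Kcna6* window no GC box and 8 CpG. Hence a GC box stood before a gene at high counts (*Kcnc1*) and before a gene at almost none (*Kcna3*). A GC box was found in 32.7% of all windows and in at least 1 window of 6 of the 8 members, counting both strands. The search also covered CCAAT (33.8% of windows), TATAAA (12.4%), AGGTCA, the core of nuclear receptor sites (14.02%), the EBF site, TCCC and GGGA spaced by 2 bases (0.779%), and the MEF2 site, CTA and TAG spaced by 4 bases (3.20%), none of which matched in the 4 printed windows. No motif contains another in full. The most upstream *Kcnab2* window held 5 CCAAT boxes, a number reached by 0.213% of windows. These matches describe letters only and say nothing about binding.

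Levels between libraries are given as CPM, that is counts brought to the same library size with TMM factors, which allows for differences in library composition. *Kcna1*, the Kv1.1 gene and in humans the gene of an inherited episodic ataxia, had the most reads of the family, 30558 over all libraries. At P0 its libraries (replicates 1, 2 and 3 in this order throughout) had 81.02, 71.02 and 20.7 CPM, and at P4 113, 108 and 84.04 CPM. At P8 they had 343, 326 and 449.7 CPM, at P14 766, 620.1 and 667 CPM and at P21 718, 701 and 875 CPM. Every library of P4 was above every library of P0, but by a narrow margin, 84.04 CPM against 81.02 CPM. The share of all genes with this order from P0 to P4 was not counted. Every library of P8 was above P4 and every one of P14 above P8, while P14 and P21 overlapped. The mean rose 13.3-fold, from 57.6 ± 32.3 to 765 ± 95.7 CPM (SD, n = 3, as for every ± below). In edgeR's quasi-likelihood test with Benjamini-Hochberg adjustment over all 14293 genes tested, *Kcna1* rose by 0.19 log2 units per day (SE 0.026, adjusted p = 2.23e-05), and P21 exceeded P4 by 2.91 log2 units (SE 0.35, adjusted p = 2.42e-05). P4 exceeded P0 by 0.82 log2 units (SE 0.34) and missed the threshold in that test (adjusted p = 0.262). Fewer PCs in a sample and less of a transcript per PC cannot be told apart in such bulk RNA, here or for any other gene below.

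*Kcna6*, which encodes Kv1.6, also climbed, and did so mainly between P4 and P14. Its libraries had 39.1, 53.7 and 6.35 CPM at P0 and 28.9, 29.5 and 91.8 CPM at P4. They had 138, 148 and 125 CPM at P8, 339, 251 and 292 CPM at P14 and 269, 399 and 292 CPM at P21. P0 and P4 overlapped, P8 and P14 each lay wholly above the age before, and P14 and P21 overlapped again. The mean was 9.68-fold higher at P21 than at P0. *Kcna6* rose by 0.17 log2 units per day (SE 0.028, edgeR adjusted p = 1.33e-04) and P21 exceeded P4 by 2.67 log2 units (SE 0.56, adjusted p = 0.00296). The antisense gene *Gm26673* overlaps 2355 bases of the *Kcna6* exons, and since the library kit does not mark strand the 2 cannot be told apart there. *Gm26673* itself was given 3 counts in all 15 libraries together. Reads lying in both genes may have been given to neither, so this count does not show how many were lost. The RPKM and Kv1 share of *Kcna6* below use all 5945 exon bases and may therefore be too low.

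*Kcnab2*, the gene of the Kv beta subunit that is most abundant in brain, had a higher mean at each age than at the age before. It had 18.6, 3.27 and 29.7 CPM at P0, 10.3, 44.2 and 60.3 CPM at P4 and 93.8, 44.2 and 81.2 CPM at P8. At P14 it had 128, 189 and 132 CPM and at P21 204, 230.4 and 239.6 CPM. The first 3 ages overlapped, each with the next, and all P14 libraries lay above all P8 libraries and all P21 libraries above all P14 libraries. The mean was 13.1-fold higher at P21 than at P0. *Kcnab2* rose by 0.17 log2 units per day (SE 0.027, edgeR adjusted p = 7.94e-05), and P21 exceeded P4 by 2.55 log2 units (SE 0.61, adjusted p = 0.00865).

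*Kcna2*, which encodes Kv1.2, a partner of Kv1.1 in mixed channels, had few reads, 3 to 198 per library. Its libraries had 6.07, 4.29 and 1.64 CPM at P0, 3.92, 0.383 and 17.2 CPM at P4 and 10.8, 7.15 and 4.82 CPM at P8. They had 17.7, 5.900 and 8.97 CPM at P14 and 20.3, 18.9 and 31.6 CPM at P21. All P21 libraries lay above those of every other age, and the 4 earlier ages overlapped, with the widest spread at P4. *Kcna2* rose by 0.11 log2 units per day (SE 0.037, edgeR adjusted p = 0.0333), but the test for any difference between ages gave an adjusted p of 0.321. The trend call was lost without P0 replicate 2 (adjusted p = 0.0528), P0 replicate 3 (0.0629), P21 replicate 1 (0.0575), P21 replicate 2 (0.0541) or P21 replicate 3 (0.113), and without the whole P0 group (slope 0.11, adjusted p = 0.118).

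*Kcna4*, the gene of the rapidly inactivating Kv1.4, was the only tested member with a negative slope. It had 50.9, 19.8 and 11.9 CPM at P0, 27.5, 25.9 and 6.53 CPM at P4, 32.9, 13.4 and 12.1 CPM at P8, 13.5, 7.04 and 14.7 CPM at P14 and 10.3, 12.4 and 7.503 CPM at P21. The P0 and P21 libraries overlapped by a narrow margin, 11.9 CPM being the lowest value at P0 and 12.4 CPM the highest at P21. The slope was -0.07 log2 units per day (SE 0.028) and missed the threshold in edgeR's test (adjusted p = 0.0695). It passed in DESeq2's test (adjusted p = 0.0476) and in edgeR's test without P0 replicate 3 (0.0416) or P4 replicate 3 (0.0373), the lowest library of each of those ages.

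*Kcna3*, which encodes Kv1.3, a channel best known from T lymphocytes, had reads in only 5 of 15 libraries: 33 in P0 replicate 2, 2 in P4 replicate 2, 28 in P4 replicate 3, 3 in P21 replicate 1 and 9 in P21 replicate 3. In the other 10 libraries it had no read, and 3 reads, the limit that a count of 0 allows, correspond to 0.384 to 0.880 CPM depending on the library. It was not tested. At P8 and P14 *Kcna3* was not detectable at this depth.

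**Figure D1:**
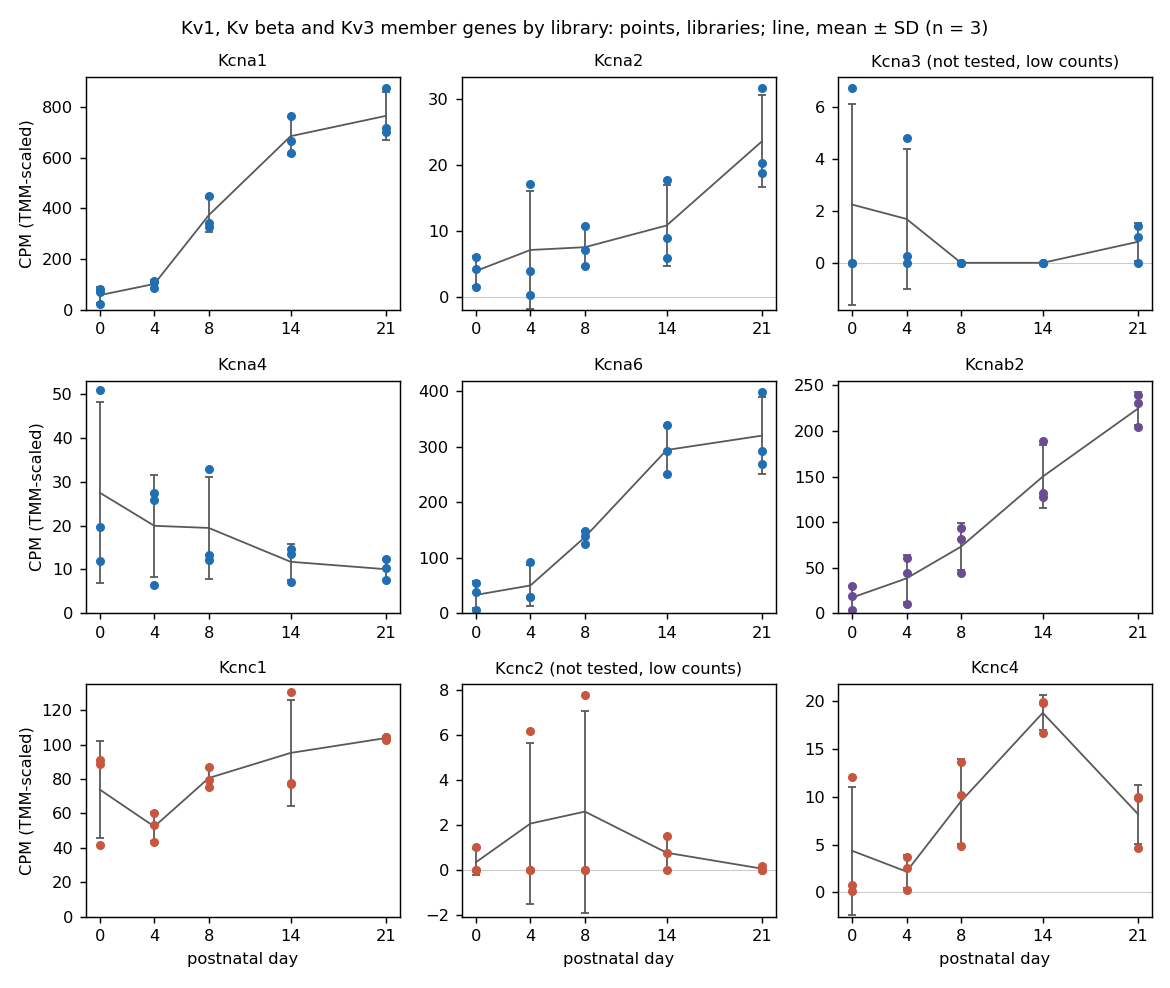
CPM (TMM-scaled, linear axes starting at or below 0) of the 9 member genes against postnatal day, with 1 point per library and lines through the means with SD bars (n = 3). *Kcna1* climbs from a mean of 57.6 CPM at P0 to 765 CPM at P21 and *Kcna6* and *Kcnab2* climb with it, whereas *Kcnc4* is highest at P14 and *Kcna3* and *Kcnc2* have no read in most libraries.

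Among the Kv3 genes, *Kcnc1*, which encodes Kv3.1, was present in every library. Its libraries had 88.7, 91.2 and 41.6 CPM at P0 and 53.4, 43.7 and 59.98 CPM at P4. They had 79.6, 75.3 and 86.7 CPM at P8, 77.3, 131 and 77.5 CPM at P14 and 104, 103 and 104 CPM at P21. The P4 libraries overlapped P0 and lay below all libraries of P8, P14 and P21. P21 exceeded P4 by 0.99 log2 units (SE 0.31, edgeR adjusted p = 0.0362), while the slope over all ages, 0.034 log2 units per day (SE 0.014), missed the threshold (adjusted p = 0.0716). Without the P0 group the slope was 0.054 and passed (adjusted p = 0.0199), as it did without P0 replicate 1 (0.0364) or P0 replicate 2 (0.0316). The call of P21 over P4 was lost without P4 replicate 1 (0.0824), P4 replicate 2 (0.112), P4 replicate 3 (0.0564), P8 replicate 1 (0.0509), P21 replicate 1 (0.0801), P21 replicate 2 (0.0818) or P21 replicate 3 (0.0773), with the difference between 0.88 and 1.098 log2 units throughout.

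*Kcnc4*, which encodes the fast-inactivating Kv3.4, had its highest values at P14. It had 0.196, 12.04 and 0.819 CPM at P0, 0.245, 3.702 and 2.58 CPM at P4 and 13.6, 10.2 and 4.82 CPM at P8. At P14 it had 16.6, 19.8 and 19.9 CPM and at P21 9.98, 4.61 and 9.897 CPM. All P14 libraries lay above all P8 and all P21 libraries. None of its tests passed (edgeR adjusted p = 0.263 for the slope and 0.327 for any difference between ages), and the counts behind these values were 1 to 104 per library. *Kcnc2*, which encodes Kv3.2, had reads in 6 of 15 libraries: 5 in P0 replicate 2, 36 in P4 replicate 3, 39 in P8 replicate 1, 4 in P14 replicate 2, 8 in P14 replicate 3 and 1 in P21 replicate 3. It was not tested.

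Taking the 9 members together, 4 rose with age (*Kcna1*, *Kcna2*, *Kcna6* and *Kcnab2*) and 0 fell in edgeR's test, 3 did not pass, and 2 were not tested. *Kcna4* had an unadjusted p of 0.0204 in that test and was the only member to fall in DESeq2's test, while 0 members fell in limma-voom's. Of all genes tested, 11.98% rose and 14.5% fell. The median slope of the 7 tested members was 0.11 log2 units per day, against -0.0089 over all genes tested. P21 was higher than P4 for 4 members (*Kcna1*, *Kcna6*, *Kcnab2* and *Kcnc1*) and lower for none, against 8.16% and 8.93% of all genes. In the test for any difference between ages *Kcna1* (adjusted p = 2.72e-06), *Kcna6* (8.56e-04) and *Kcnab2* (0.00205) passed, against 19.3% of all genes. *Kcnc4* passed it only without P0 replicate 2 (adjusted p = 0.0317, against 0.327 with all libraries). Without P0 the slopes of *Kcna1*, *Kcna6* and *Kcnab2* were each 0.15 log2 units per day, with edgeR adjusted p of 6.88e-04, 0.00118 and 5.46e-04 in this order.

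Between neighbouring ages only a single step passed, the rise of *Kcna1* from P4 to P8 by 1.88 log2 units (SE 0.34, edgeR adjusted p = 0.0106), where 0.861% of all genes were higher and 0.259% lower. This call was lost without P4 replicate 3 (1.76 log2 units, adjusted p = 0.0622) or P8 replicate 3 (1.72, adjusted p = 0.0572). At the other steps 0 members passed in edgeR's, DESeq2's or limma-voom's test, where 1.61% of genes were higher and 0.245% lower at P4 than P0, 1.33% and 1.37% at P14 than P8, and 0.0630% and 0.259% at P21 than P14. Before adjustment, edgeR's p was under 0.05 for *Kcna1* at the P4 step (0.0271), for *Kcna1* and *Kcna6* (0.0156) at the P8 step, for *Kcna1* at the P14 step (0.0177) and for no member at the P21 step. Without P0 replicate 3, *Kcna1* also passed at the P14 step (0.88 log2 units, adjusted p = 0.0153, against 0.219 with all libraries). The mean CPM of *Kcna1* was 3.67-fold higher at P8 than P4, 1.83-fold higher at P14 than P8 and 1.12-fold higher at P21 than P14. For *Kcnab2* the corresponding folds were 1.91, 2.05 and 1.499, and for *Kcna6* 2.74, 2.14 and 1.09. Whether these folds differed between genes was not tested.

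By library, 6 members had every P21 value above every P4 value (*Kcna1*, *Kcna2*, *Kcna6*, *Kcnab2*, *Kcnc1* and *Kcnc4*), as did 16.8% of all genes tested. From P8 to P14 this held for *Kcna1*, *Kcna6*, *Kcnab2* and *Kcnc4* (13.1% of all genes), and from P4 to P8 for *Kcna1*, *Kcna6*, *Kcnc1* and *Kcnc4* (9.12%). From P14 to P21 it held for *Kcna2* and *Kcnab2* (7.58%), while all *Kcnc4* values lay below those of P14, an order seen in 9.004% of genes.

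To compare genes with each other, counts were divided by exon length and library size (RPKM, with the exon length in kilobases and the library size as its counts on genes). At P21 the order of mean RPKM was *Kcna1* (141 ± 20.1), *Kcna6* (47.1 ± 9.36), *Kcnab2* (35.4 ± 3.09) and *Kcnc1* (9.64 ± 0.263), each with every library above every library of the next. *Kcnc4* (1.96 ± 0.766), *Kcna4* (1.82 ± 0.408) and *Kcna2* (1.75 ± 0.549) followed and were not separated from each other by their libraries, and *Kcna3* and *Kcnc2* stood last. At P14 the order was the same for the first 4, and *Kcnc4* (4.82 ± 0.549), *Kcna4* (2.28 ± 0.777) and *Kcna2* (0.853 ± 0.466) came next without overlap. At P8 *Kcna1* (81.9 ± 14.7) stood above *Kcna6* (24.2 ± 1.996), and *Kcnab2* (13.8 ± 4.98) overlapped with *Kcnc1* (8.95 ± 0.671). At P4 only *Kcna1* (22.3 ± 3.18) was set apart from the next gene. At P0 no neighbours in the order were separated, and *Kcna1* (13.2 ± 7.34) and *Kcnc1* (8.54 ± 3.18) had the highest means. With the longest transcript as the length, *Kcnab2* (50.3 RPKM) came above *Kcna6* (48.0 RPKM) at P21, so the order of these 2 depends on the gene model.

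**Figure D2:**
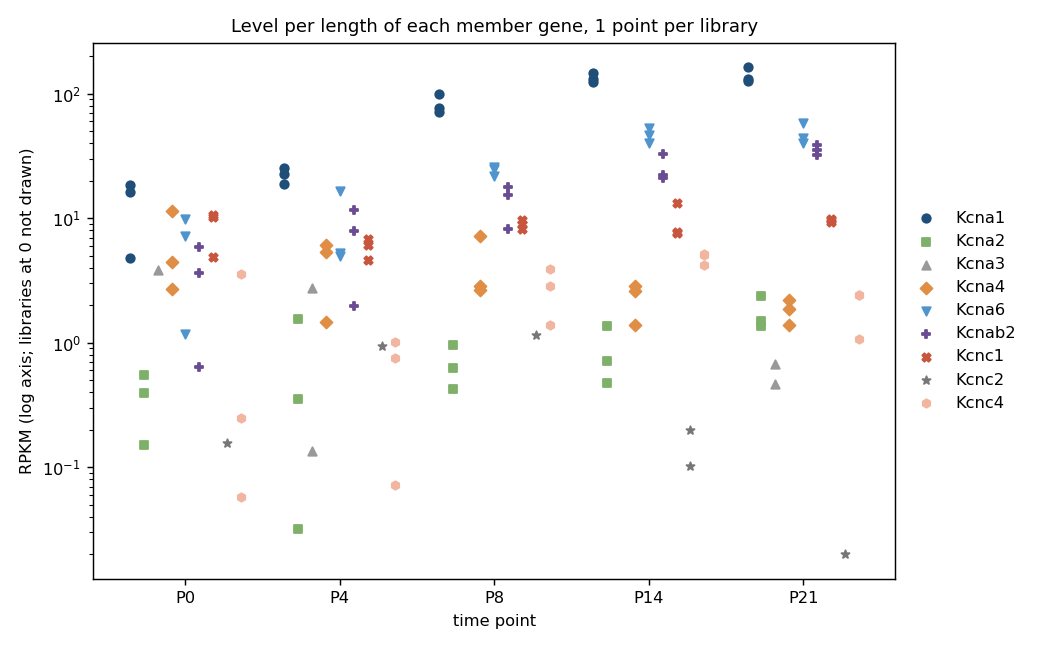
RPKM of each member in each library at P0, P4, P8, P14 and P21 on a log axis, with libraries at 0 not drawn. *Kcna1* is the highest gene in every library from P4 on, and the distance between *Kcna1* and *Kcnc1* widens from means of 13.2 and 8.54 RPKM at P0 to 141 and 9.64 RPKM at P21.

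The make-up of the Kv1 RNA shifted with age. *Kcna1* made up 49.9 ± 3.86% of the summed RPKM of the 5 Kv1 alpha genes at P0, 60.9 ± 13.01% at P4, 73.4 ± 5.48% at P8 and 73.2 ± 5.24% at P21. *Kcna4* went from 24.7 ± 10.3% at P0 through 12.1 ± 7.400% at P4 and 3.87 ± 2.42% at P8 to 0.966 ± 0.274% at P21. Each P0 library had a higher *Kcna4* share (12.8% to 30.8%) than each P8, P14 or P21 library (0.655% to 6.63%). The mean of *Kcna4* itself was 6.22 RPKM at P0, 4.31 RPKM at P4, 4.25 RPKM at P8 and 1.82 RPKM at P21. Its share thus fell by more than its level, because the summed RPKM of the 5 genes grew. *Kcna6* had mean shares between 20.2% and 25.2%, and *Kcna2* never exceeded a mean of 1.61%. In P4 replicate 3 the shares stood apart from those of the other P4 libraries, with 45.9% *Kcna1* and 40.3% *Kcna6* against 68.3% and 68.5% *Kcna1* and 14.1% and 15.01% *Kcna6*. These shares carry no test.

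**Figure D3:**
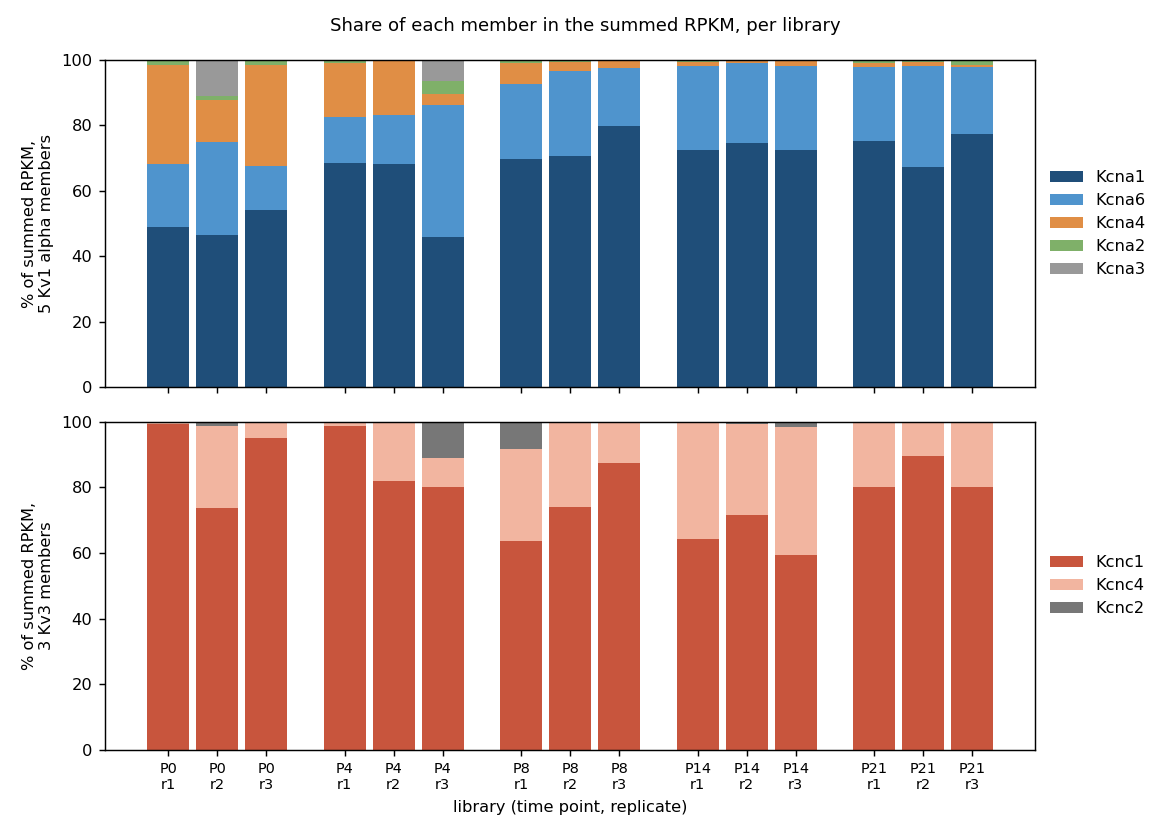
Share of each gene, in percent per library, of the summed RPKM of the 5 Kv1 alpha members (upper panel) and the 3 Kv3 members (lower panel), with the libraries ordered by age and replicate. The *Kcna4* part of the upper bars shrinks from a mean of 24.7% at P0 to 0.966% at P21, and the *Kcnc4* part of the lower bars is widest at P14, at 34.3%.

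For the 3 Kv3 genes, *Kcnc1* made up 89.5 ± 13.7% at P0, 65.03 ± 6.14% at P14 and 83.3 ± 5.46% at P21, and *Kcnc4* 10.2 ± 13.1%, 34.3 ± 5.74% and 16.6 ± 5.41%. The summed RPKM of the 5 Kv1 alpha genes went from 27.1 ± 15.9 at P0 to 192 ± 18.3 at P21. That of the 3 Kv3 genes was 9.89 ± 4.59 at P0 and 11.6 ± 1.03 at P21. The ratio of Kv1 alpha to Kv3 sums was 2.61 ± 0.9803 at P0. It was 5.59 ± 0.646 at P4 and 9.34 ± 1.76 at P8, and it reached 13.5 ± 4.23 at P14 and 16.6 ± 1.805 at P21. Its P0 libraries (1.73 to 3.67) lay below its P4 libraries (4.85 to 6.04), and these below its P8 libraries (7.78 to 11.3).

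By mean RPKM, *Kcnab2* led the Kv beta genes only at P0 (3.39 ± 2.64 RPKM), and there its libraries overlapped with those of *Kcnab1*. *Kcnab1*, whose product carries a particle that inactivates Kv1 channels, had 2.52 ± 3.64 RPKM at P0, 13.2 ± 3.01 RPKM at P4 and 16.1 ± 0.751 RPKM at P8, and then 48.3 ± 10.8 RPKM at P14 and 63.4 ± 3.23 RPKM at P21. It rose by 0.21 log2 units per day (SE 0.039, edgeR adjusted p = 4.03e-04). *Kcnab3*, the third beta gene, had no trend that passed (slope 0.022, SE 0.074, adjusted p = 0.864) but passed the test for any difference between ages (adjusted p = 0.0210), with 0.7297 ± 0.689 CPM at P0, 23.8 ± 4.72 at P8 and 7.35 ± 3.63 at P21. Of the summed RPKM of the 3 beta genes, *Kcnab2* accounted for 69.9 ± 31.9% at P0 and 35.04 ± 2.73% at P21. The P0 shares were 33.5%, 92.5% and 83.9%, and that of replicate 2 rested on 16 *Kcnab2* reads. A change of the leading beta gene after P0 is therefore not shown. Of the 3 remaining Kv1 alpha genes outside the member list, *Kcna7* and *Kcna10* had no read in any library and *Kcna5* had 0 to 11.

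Of 10 genes for proteins that join Kv1 complexes or anchor them in the axon, all tested, 2 rose and 0 fell, against 11.98% and 14.5% of all genes tested. The only negative slope among them was that of *Cntn2* (-0.023, SE 0.028, unadjusted p = 0.428 in edgeR's test). *Adam23*, a membrane receptor of the secreted protein Lgi1, rose by 0.18 log2 units per day (SE 0.014, edgeR adjusted p = 5.17e-08), from 97.3 ± 23.1 CPM at P0 to 955 ± 118 CPM at P21. *Epb41l3*, the cytoskeletal linker protein 4.1B, rose by 0.038 (SE 0.011, adjusted p = 0.0119). The other 8 (*Cntnap2*, *Cntn2*, *Dlg1*, *Dlg2*, *Dlg4*, *Lgi1*, *Adam11* and *Adam22*) did not pass, and the median slope of the 10 was 0.017.

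Over all genes tested, more fell (2079, 14.5%) than rose (1712, 11.98%), and the counts of the remaining lists stand against these shares. Among 11 genes of Kv2 channels and of modifier subunits, which are silent alone and join Kv2 channels, 7 were tested, 1 rose and 3 fell. The riser was *Kcng4*, with 0 to 2 reads per library at P0 and 634 ± 69.3 CPM at P21 (slope 0.42, SE 0.052, edgeR adjusted p = 8.37e-06). The modifier genes *Kcnf1* (slope -0.49, SE 0.12, adjusted p = 0.00471) and *Kcnv1* (-0.37, SE 0.10, 0.00952) and the Kv2.2 gene *Kcnb2* (-0.23, SE 0.079, 0.0345) fell in the trend with day, with reads in 6, 7 and 12 of 15 libraries. In the test for any difference between ages none of these 3 passed (edgeR adjusted p = 0.0909, 0.155 and 0.159). *Kcnf1* had no read at P14 or P21, but at P0 its libraries ranged from 0 to 288 reads. Of 5 Kv7 genes, 4 were tested and 1 fell, *Kcnq5* (-0.26, SE 0.068, adjusted p = 0.00776), with 13.8 ± 4.998 CPM at P0 and 0 to 2 reads per library at P21, but it missed the threshold in the test for any difference between ages (adjusted p = 0.0691). Of 8 Kv10 to Kv12 genes, 5 were tested and *Kcnh4* fell (-0.22, SE 0.062, adjusted p = 0.0134). Of 5 KCNE accessory subunit genes, only *Kcne5* was tested, and it fell (-0.19, SE 0.058, adjusted p = 0.0229). None of these lists was compared with the member list by a test.

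**Figure D4:**
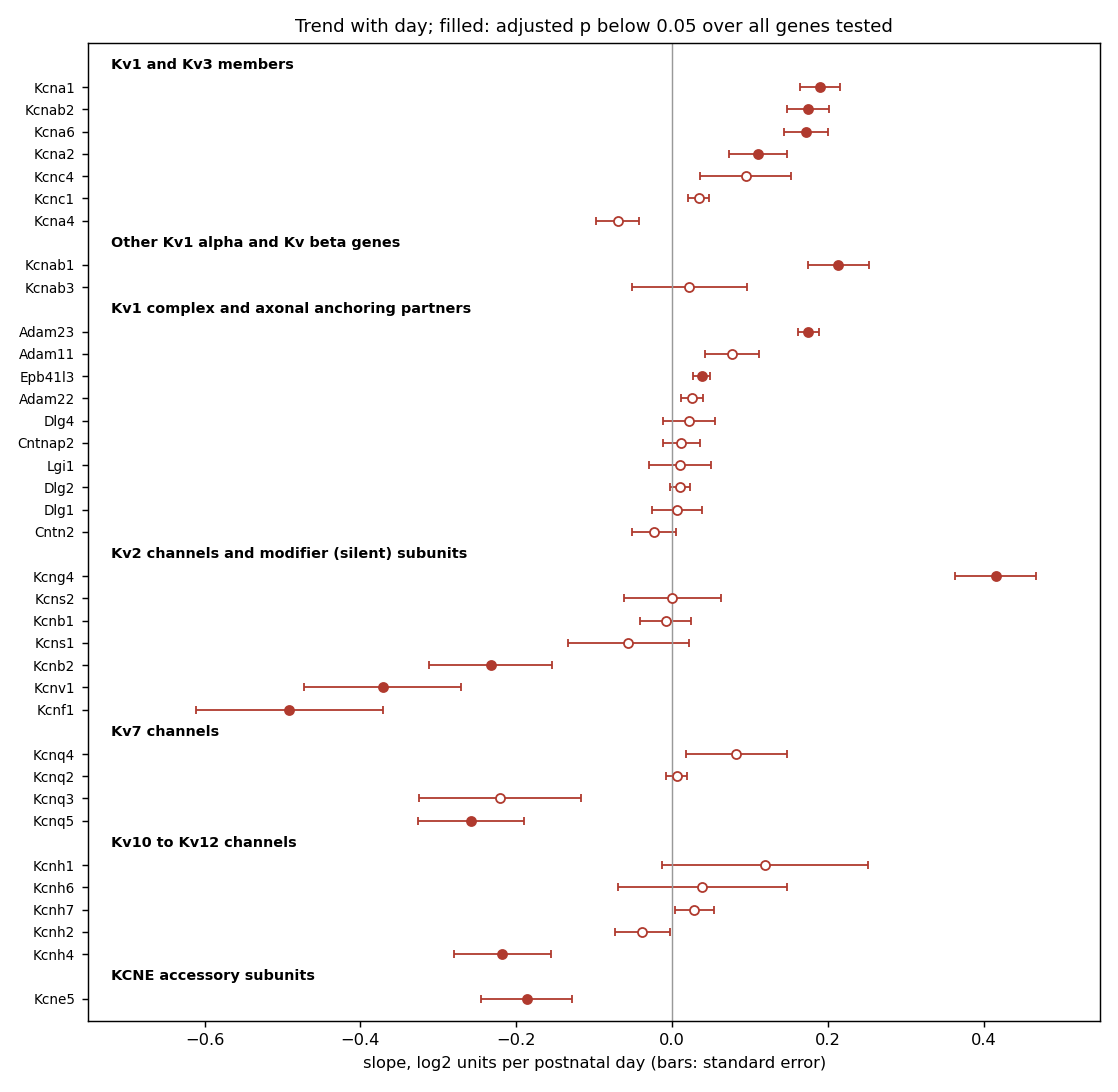
Slope with postnatal day in log2 units per day (bars, standard error) of the tested members and of the tested genes of 6 related lists, filled where the edgeR adjusted p was below 0.05. The members *Kcna1*, *Kcnab2*, *Kcna6* and *Kcna2* are filled to the right of 0 along with *Kcnab1*, *Adam23*, *Epb41l3* and *Kcng4*, and all 6 filled genes to the left of 0 are outside the member list.

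Of the 9730 tested genes with a mean of at least 10 CPM, those most like *Kcna1* in log2 CPM over the 15 libraries were *Mreg* (Pearson r = 0.98), *Sphkap* (0.98) and *Chn1* (0.97). For *Kcna6* they were *Tspan11* (0.97), *Shisa6* (0.96) and *Tppp* (0.96), and for *Kcnab2* *Rnf19b* (0.95), *Orai3* (0.95) and *Hsdl2* (0.94). *Kcnc4* was nearest to *Caln1* (0.89) and *Olfm3* (0.89), and *Kcnc1* to *Zfp365* (0.89), *D3Ertd751e* (0.87) and *Numb* (0.87). *Kcna2* was nearest to *Pja2* (0.94), *Ero1l* (0.88) and *Cyfip2* (0.87), and *Kcna4* to *Tanc2* (0.80), *Alyref* (0.76) and *Clint1* (0.76). Among the members, *Kcna1* and *Kcna6* had r = 0.94, and *Kcna4* had r between -0.55 and -0.27 with the other 6. All these values are descriptions over 15 libraries that share 5 ages, so genes that move the same way with age are alike by this measure.

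The captured cells carried PC markers at all ages, and several marker lists moved with the member genes. The summed CPM of 6 PC markers ranged from 4629 to 6179 at P0 and from 36769.9 to 46129 at P21, and 6 of 6 rose. Of 5 oligodendrocyte markers 5 rose, with sums of 13.9 to 36.2 CPM at P0 and 394 to 842 CPM at P21, and *Mag* and *Mobp* were at 0 at P0. Of 8 Bergmann glia and astrocyte markers 4 rose and 1 fell, with sums of 1743 to 2434 CPM at P0, 5280 to 6052 CPM at P14 and 3571 to 4936 CPM at P21. Markers of molecular layer interneurons, the group that holds the basket cells, had sums of 72.2 to 109 CPM at P0, 195 to 225 CPM at P4, 113 to 141 CPM at P8, 83.8 to 139 CPM at P14 and 77.5 to 110 CPM at P21. Every P4 library, the baseline of the P21 over P4 comparison, thus lay above every library of the other ages. None of the 4 tested passed in the trend with day (edgeR adjusted p between 0.0535 and 0.446), *Kit* passed in the test for any difference between ages (0.0158) and was lower at P21 than P4 (-2.62 log2 units, SE 0.56, adjusted p = 0.00355), and *Slit1* was at 0 from P8 on. *Adam11* is in this marker list and in the partner list, and it made up much of the late sums. Its mean was 16.5 ± 16.2 CPM at P4 and 62.9 ± 15.4 CPM at P21, where the mean sums were 213 and 97.5 CPM. Its slope was positive (0.077), while those of *Sorcs3* (-0.086), *Nxph1* (-0.082) and *Kit* (-0.093) were negative. The sums at P21 therefore do not show the course of the other markers. Granule neuron markers had sums of 234 to 355 CPM at P0, 238 to 480 CPM at P4, 468 to 807 CPM at P8, 478 to 1223 CPM at P14 and 299.98 to 627 CPM at P21. Of these 5 markers, *Gabra6* and *Cbln3* rose, and *Neurod1* passed only in the test for any difference between ages (edgeR adjusted p = 0.0295). Golgi cell (3 genes), microglia (4) and vascular markers (3), of which only the vascular *Pecam1* passed in the trend with day, and fell, had mean sums of at most 77.1 CPM at every age. The part of these marker genes in the courses of the Kv genes was not tested.

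Total counts on genes were between 3409371 and 7814951 per library (median 5345170). Replicates differed by more than sampling noise at every age, with correlations of log CPM between 0.77 and 0.91, the lowest being at P0.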

How the data were processed

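RNA of laser-captured PCs was amplified with the SMARTer Ultra Low kit, which does not mark strand. The authors trimmed the reads (Cutadapt 1.2.1), aligned them to GRCm38 (mm10) with GSNAP and counted unique reads per Ensembl gene with HTSeq 0.5.3p9 in intersection-strict mode. The deposited values are these raw counts, 1 library per sample, without normalization or pooling; the annotation release is not given in the sources used here. The tallies of reads not on genes (18.2% to 31.0% of all tallied reads) were left out.

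Groups came from the sample labels, and gene names, positions and exon lengths from GENCODE M21 (36639 of 38561 identifiers matched; *Kcne5* is listed there as *Kcne1l*). CPM, RPKM and all tests were computed from the deposited counts. edgeR 4.0.16 (R 4.3.3) used TMM factors, filterByExpr by age and quasi-likelihood F tests of the day as a number and of age as a factor, with Benjamini-Hochberg adjustment and a threshold of 0.05. Correlations used log2 CPM with a prior count of 2. Alternatives were DESeq2 1.42.0 size factors and tests, limma-voom (limma 3.58.1), no filter or a stricter filter (1 CPM in at least 6 libraries), a replicate block, log2(day + 1), no P0 group, each library left out, and other lengths or library sizes for RPKM. The tests were run on simulated counts drawn from the model of spread that edgeR assumes, fitted to these data. Such a check cannot show whether the real counts follow that model. RefSeq promoter windows were searched in Python 3.11.15 (pandas 2.3.3), and matplotlib 3.10.9 drew the figures.

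All 9 members were named in every case. From each related list the genes past the threshold were named, at most 4 in each direction by size of slope, *Kcnab3* being added after its values were seen, and for each tested member up to 3 genes most alike. Some results under these rules are not reported here. The members and lists were chosen with earlier results of these data known. The floor of 3 counts covers counting error only.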

Additional observations from a re-analysis of the deposited data

How the results depend on the processing

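With 23 other settings for the trend, *Kcna1* (slope 0.153 to 0.208), *Kcna6* (0.153 to 0.189) and *Kcnab2* (0.150 to 0.185) kept their calls in each of the 22 that gave a slope per day, and no direction of a member reversed in any setting. The number of members that rose was 3 to 5 when a library was left out, 5 in limma-voom's test (with *Kcnc1*, adjusted p = 0.0337) and 4 without P0, where *Kcnc1* passed and *Kcna2* did not. On the scale of log2(day + 1) *Kcna2* also missed the threshold (adjusted p = 0.0615). The number that fell was 1 (*Kcna4*) in DESeq2's test and 0 to 1 when a library was left out. The replicate block, with the replicate number of the labels as a factor, left 1703 rising and 1964 falling genes (1712 and 2079 without it), and the call of *Kcnc1* for P21 over P4 was lost with it (0.98 log2 units, adjusted p = 0.0535) and without a filter (0.99, adjusted p = 0.0545); the block changed no other member's call. The numbers do not pair the libraries, since deviations of same-numbered libraries had a mean correlation of -0.0033, 0 of 30 pairs were over 0.1 and 3 of 15 libraries correlated best with their own number.

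Counts over all genes at single steps moved most. DESeq2's test called 557 genes higher and 216 lower at P4 than P0 (230 and 35 in edgeR's), 323 and 173 from P4 to P8 (123 and 37), 398 and 446 from P8 to P14 (190 and 196) and 50 and 125 from P14 to P21 (9 and 37). limma-voom called 89 lower at P4 than P0, 71 higher and 104 lower from P4 to P8, and 5 higher and 11 lower from P14 to P21, and without a filter 14 were higher at P21 than P14. Leaving out a library gave 19 to 65 lower at P4 than P0, 65 to 159 higher and 9 to 42 lower from P4 to P8 (members higher, 0 to 1), 89 to 237 higher and 74 to 207 lower from P8 to P14 (members higher, 0 to 1), and 2 to 11 higher and 21 to 59 lower from P14 to P21. The cause was not tested. Of the mean RPKM values, 12 moved by more than 1 SD, 10 of them with the longest transcript as the length and 2 with TMM library sizes. The spread between libraries was wide (biological coefficient of variation 0.756), and counts of *Kcna2*, *Kcna3*, *Kcnc2* and *Kcnc4* were low, which limits what can be said of them.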

Other observations

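Not every gene that fell with age in the related lists had its highest mean at P0. *Kcne5*, an accessory subunit gene, had mean values of 17.96 ± 14.8 CPM at P0, 42.1 ± 20.1 CPM at P4 and 30.9 ± 6.38 CPM at P8, followed by 11.8 ± 3.69 CPM at P14 and 1.63 ± 1.57 CPM at P21 (SD, n = 3). It passed the test for any difference between ages (edgeR adjusted p = 0.0251), and the fitted difference of P21 minus P4 was -4.61 log2 units (SE 0.999, adjusted p = 0.00413). For P4 minus P0 it was 1.23 log2 units (SE 0.853) and missed the threshold (edgeR adjusted p = 0.586), and the libraries of these ages overlapped. *Kcnh4*, which encodes a Kv12 channel subunit, had 39.5 ± 25.9 CPM at P0 and means between 1.08 and 2.58 CPM from P4 on, and the fitted difference between P21 and P4 was 0.14 log2 units (SE 1.36, adjusted p = 0.965). The fitted difference of P4 minus P0, where clusters of PCs were captured at P0, was -4.93 log2 units (SE 1.53) and missed the threshold (edgeR adjusted p = 0.131). *Kcng4*, the modifier subunit gene that rose, had 0 to 2 reads per library at P0, 10.96 ± 3.13 CPM at P4, 71.7 ± 28.6 CPM at P8, 306 ± 189 CPM at P14 and 634 ± 69.3 CPM at P21, and at P21 its mean RPKM (147 ± 18.6) stood beside that of *Kcna1* (141 ± 20.1) with overlapping libraries.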
